A study of Arabidopsis thaliana with 30 samples.

Results

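The 34 genes described here make, perceive and break down jasmonates in Arabidopsis, and they were taken by gene identifier from the 37051 genes counted in the series. They comprise 10 genes of synthesis (LOX2, LOX3, LOX4, LOX6, AOS, AOC1 to AOC4 and OPR3), the conjugating enzyme gene JAR1, the receptor gene COI1, 3 transcription factor genes (MYC2, MYC3 and MYC4), 12 repressor genes (JAZ1 to JAZ12), 5 turnover genes (CYP94B1, CYP94B3, CYP94C1, ILL6 and IAR3) and the jasmonate-responsive genes VSP1 and VSP2. Transcripts were read from nuclei sorted by fluorescence out of the second internode of inflorescence stems, all in the Col-0 background. Every line carried histone H4 fused to GFP, and the promoter that drove the fusion differed between lines. The paper also describes cloned terminator regions of NST3, VND7, SCR, LTP1 and APL. The promoter of SCR (SCRpro) marked starch sheath cells, that of LTP1 (LTP1pro) the epidermis, that of NST3 (NST3pro) fibers and that of VND7 (VND7pro) vessel elements under differentiation. PXYpro marked proximal cambium and differentiating xylem, SMXL5pro distal cambium and differentiating phloem, and APLpro mature phloem. For 3 of the lines (NST3pro, SMXL5pro and APLpro) the GFP-negative nuclei, sorted by their lack of fluorescence, were sequenced as well. Reads on GFP were present in 8 of these 9 GFP-negative libraries. Each of the 10 groups had 3 libraries, which the labels number serially, and a tissue here means the cells in which the promoter was active.

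Jasmonates are lipid hormones made from a plastid fatty acid, first by a lipoxygenase, an allene oxide synthase and an allene oxide cyclase, and then in the peroxisome by the reductase OPR3. JAR1 joins jasmonic acid to isoleucine, and the conjugate lets COI1 bind JAZ proteins, which are then destroyed and release MYC transcription factors. Many of the genes are themselves switched on by the hormone, the JAZ repressors and the enzymes that oxidise or cleave the conjugate included, and wounding is a classic trigger of the pathway.

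Libraries held 725545 to 18335693 reads on annotated genes. The study kept 17 of the 21 GFP-positive libraries for comparing tissues and left out 4 that stood apart, namely NST3pro replicate 2, VND7pro replicate 6, APLpro replicate 15 and LTP1pro replicate 19. Values below are from the 17 libraries unless stated, and counts of called genes with all 21 stand beside them. A normalized read count is a CPM value after TMM scaling, which corrects for a difference in composition between libraries. Markers of the labelled tissues were mostly highest where they belong, SCR and PIN3 in SCRpro nuclei and FDH and CER6 in LTP1pro nuclei among them. LTP1 itself was an exception, with a mean of 25.9 in LTP1pro nuclei and 67.7 in VND7pro nuclei. The share of reads on annotated pseudogenes, used as a measure of background, was 4.78% to 6.52% in SMXL5pro, 4.41% to 4.56% in LTP1pro and 3.49% to 4.74% in APLpro libraries, and 1.01% to 2.24% in those of the other 4 tissues. The labels do not say whether replicates came from separate plants, so p-values measure only the spread between these libraries. In such pooled nuclei, fewer cells of a type and less RNA per cell cannot be told apart. Each tissue was also read from its own line, so line and tissue cannot be told apart in any comparison among tissues.

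Of the 34 genes, 33 entered the tests and 29 of them differed among the 7 tissues at an adjusted p under 0.01 in the edgeR quasi-likelihood test, where 26.1% of all 32659 genes tested did. With all 21 libraries fitted it was 27 genes, against 17.3% of all genes. The 4 genes that did not pass with 17 libraries were LOX2, COI1, JAZ4 and JAZ11. MYC2 had 17 reads in all and did not pass the filter on low counts. Reads were counted without regard to strand, and 98.5% of MYC2 (AT1G32640) is covered by AT1G32630 on the opposite strand, so its reads could not be assigned and its level is not known from these counts. In SCRpro nuclei, of the starch sheath, 26 of the 33 genes had their highest mean, against 9.22% of all genes tested, and for 21 of them every SCRpro library lay above every other library, against 2.45% of all genes. SMXL5pro nuclei had the lowest mean for 21 genes, against 12% of all genes, and for 16 every SMXL5pro library lay below all others, against 3.56%.

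**Figure D1:**
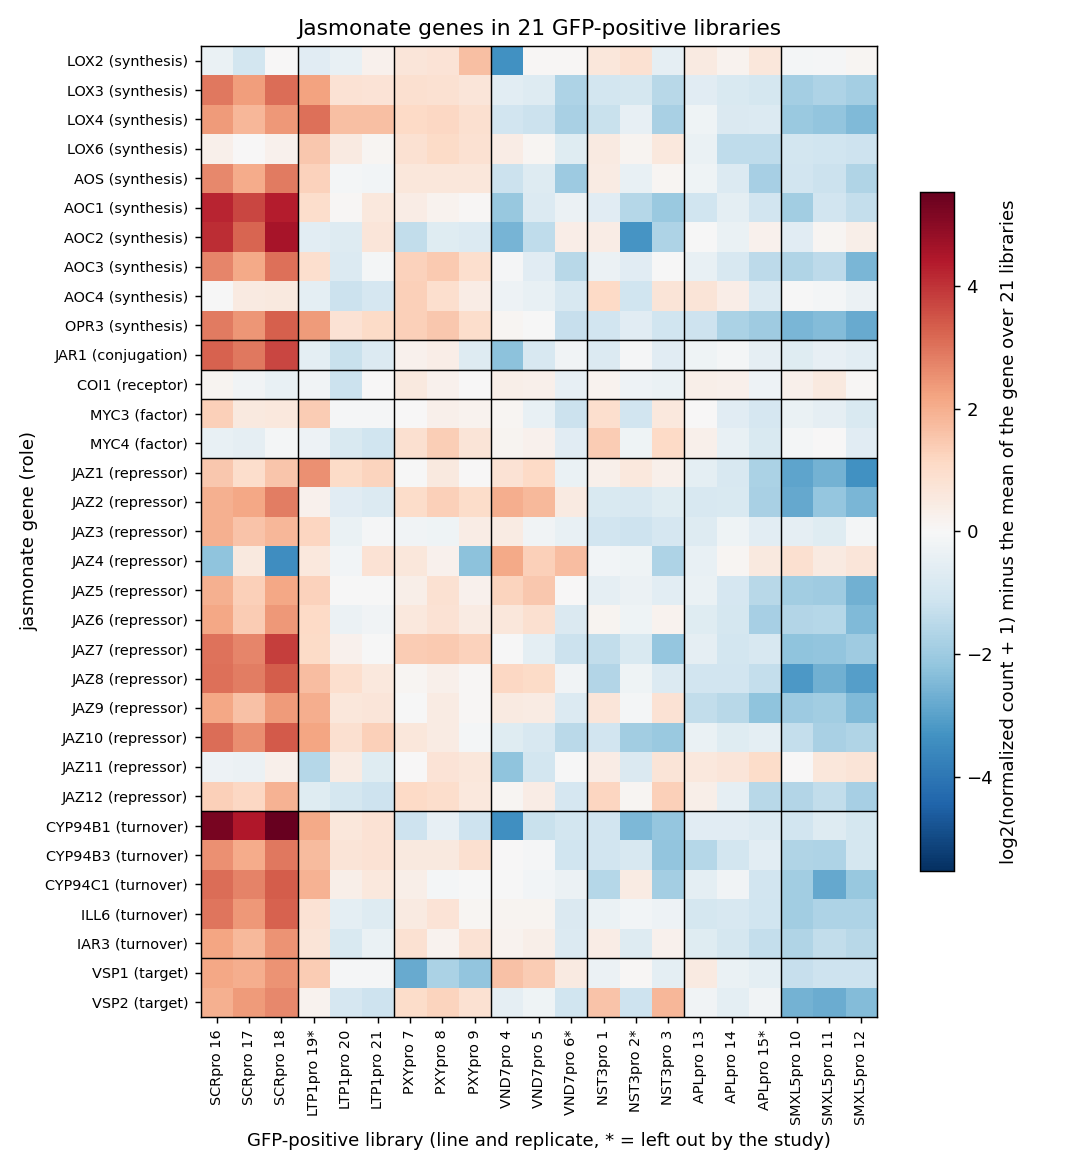
Levels of the 33 tested jasmonate genes (vertical axis, grouped by role) in all 21 GFP-positive libraries (horizontal axis, grouped by tissue, with a star on the 4 that the study left out), coloured by log2(normalized read count + 1) minus the mean of the gene over the 21 libraries. The 3 SCRpro columns are high for most genes, LTP1pro replicate 19 is high for many, and the 3 SMXL5pro columns are low.

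Summed over the 34 genes, the normalized count was 16400 to 25532 in the 3 SCRpro libraries. The next tissues were LTP1pro with 6896 to 7414, PXYpro with 6272 to 7819 and VND7pro with 6202 to 6229. NST3pro libraries had 4067 to 4152, APLpro libraries 2453 to 3070 and SMXL5pro libraries 1071 to 1348. SCRpro nuclei thus stood above every other library by this sum and SMXL5pro nuclei below, whereas LTP1pro and PXYpro libraries overlapped each other. Among genes, compared per kilobase of gene body, JAZ1 was the most abundant in SCRpro nuclei with a mean of 1148 normalized counts per kilobase, followed by OPR3 with 846 and LOX3 with 602.

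In SCRpro nuclei set against the mean of the other 6 tissues, 26 of the 33 genes were higher and 0 were lower (edgeR quasi-likelihood test, adjusted p under 0.01), where 6.36% and 1.59% of all genes were. The higher ones covered 7 of 10 synthesis genes, JAR1, MYC3, 10 of 12 repressor genes, all 5 turnover genes and both VSP genes. The median log2 fold change was 2.61 over the 33 genes and -0.04 over all genes. No GFP-negative nuclei of the SCRpro line were sequenced, so here too the line and the tissue cannot be told apart. When all 21 libraries were fitted, 25 of the same 26 genes were higher and 0 lower, where 4.07% and 0.434% of all genes were, and MYC3 was the one lost.

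Synthesis genes are given first, in the order of the pathway. LOX3 and LOX4 encode plastid 13-lipoxygenases, which start the pathway. LOX3 (AT1G17420) had 2740, 1890 and 2960 normalized counts in SCRpro nuclei, against 98.0 to 680 (median 235) in the 14 libraries of the other tissues. LOX4 (AT1G72520) had 2290, 1686 and 2334 in SCRpro nuclei, against 82.3 to 1505 (median 254). Both were above all other libraries, LOX3 by a wide gap and LOX4 by a narrow one, because LTP1pro nuclei also had high LOX4 with 1470 and 1505. The log2 fold change was 3.24 for LOX3 (SE 0.13, adjusted p = 2.28e-13) and 2.62 for LOX4 (SE 0.14, adjusted p = 1.15e-11). LOX2, the lipoxygenase behind most wound-induced jasmonate in leaves, and LOX6, linked to fast jasmonate production near the xylem, behaved differently. LOX2 (AT3G45140) had 24.6, 15.9 and 31.5 and LOX6 (AT1G67560) had 110, 95.0 and 103 in SCRpro nuclei, within the range of the other tissues in both cases. Their highest means lay in PXYpro nuclei, where all 3 libraries were above all others for both genes.

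The allene oxide steps showed the same contrast between copies. AOS (AT5G42650), the single allene oxide synthase gene, had 878, 601 and 997 in SCRpro nuclei, against 43 to 225 (median 127) in the other tissues. The AOC1, AOC2 and AOC3 genes for the cyclase lie side by side within 7312 bases of chromosome 3, and AOC4 is on chromosome 1. AOC1 (AT3G25760) had 355, 254 and 370 in SCRpro nuclei, against 3.70 to 28.3 (median 11.2). AOC2 (AT3G25770) had 243, 139 and 327 in SCRpro nuclei, against 1.60 to 22.9 (median 8.32). AOC3 (AT3G25780) had 797, 540 and 983 in SCRpro nuclei, against 20.4 to 335 (median 94.2). The SCRpro libraries were above all others for each of the 3 clustered genes, by a mean ratio to the next tissue of 13.6 for AOC1 and 15.2 for AOC2. AOC4 did not follow its neighbours in function, with 19.5, 29.7 and 28.4 in SCRpro nuclei, against 8.49 to 52.1 (median 24.0), and its groups overlapped. Log2 fold changes were 2.84 (SE 0.15) for AOS, 4.89 (SE 0.23) for AOC1, 4.71 (SE 0.32) for AOC2, 2.99 (SE 0.19) for AOC3 and 0.18 for AOC4, and only AOC4 was not called. Because the authors kept unique hits only, near-identical copies lose reads, but stretches of 50 bases that occur elsewhere in the genome made up only 2.65% of AOC1, 0.07% of AOC2 and 1.33% of AOC3.

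OPR3 (AT2G06050), which reduces the cyclised intermediate in the peroxisome, had 2718, 2086 and 3470 in SCRpro nuclei, against 51.8 to 1027 (median 275) in the other tissues. The log2 fold change was 3.36 (SE 0.14, adjusted p = 4.77e-13 in the edgeR quasi-likelihood test). JAR1 (AT2G46370), which completes the active hormone, had 512, 420 and 659 in SCRpro nuclei, against 11.2 to 66.9 (median 33.5). SCRpro libraries were above all others for both genes, and no library of another tissue reached more than 66.9 for JAR1. Its log2 fold change was 3.97 (SE 0.19, adjusted p = 3.59e-12).

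**Figure D2:**
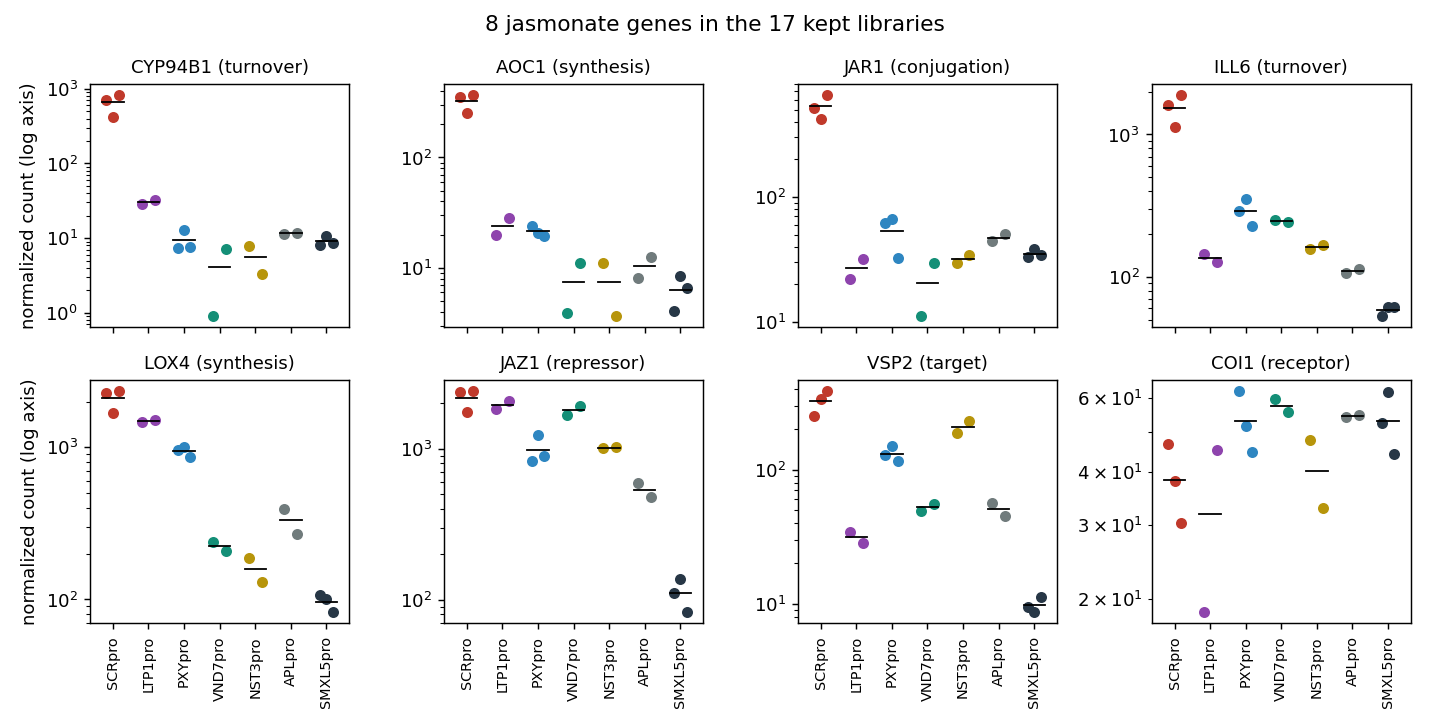
Normalized read counts (vertical log axis) of 8 jasmonate genes in the 17 kept libraries by tissue (horizontal axis), with a point for each library and a line at the tissue mean. The 3 SCRpro libraries lie highest for CYP94B1, AOC1, JAR1 and ILL6, while for COI1 the SCRpro libraries lie within the range of the other tissues.

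The receptor and the MYC factors showed little of this pattern. COI1 (AT2G39940), the F-box receptor, had 46.6, 38.2 and 30.4 in SCRpro nuclei, against 18.6 to 62.3 (median 51.9) in the other tissues, so that the groups overlapped. Its log2 fold change was -0.31 and was not called in SCRpro nuclei or in any other tissue. MYC3 (AT5G46760) had 160, 96.6 and 91.3 in SCRpro nuclei, against 34.8 to 120 (median 64.0), again with overlap. MYC3 was called at 0.84 (SE 0.19, adjusted p = 0.00422), but this call was lost without SCRpro replicate 16. MYC4 (AT4G17880) had 52.9, 52.0 and 62.2 in SCRpro nuclei, against 33.5 to 185 (median 87.1), and was not called there. MYC4 was instead highest in NST3pro nuclei.

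Repressor genes were split. JAZ7 and JAZ8, short repressors that carry their own corepressor-binding motif, had 318, 265 and 538 and 413, 368 and 486 in SCRpro nuclei. In the other tissues JAZ7 had 7.47 to 107 (median 27.2) and JAZ8 had 4.62 to 125 (median 40.8). JAZ10 (AT5G13220), a repressor with spliced forms that resist breakdown, had 395, 287 and 470 in SCRpro nuclei, against 10.3 to 118 (median 30.9). JAZ9 (AT1G70700) had 1509, 1114 and 1730 in SCRpro nuclei, against 62.1 to 604 (median 421). For these 4 genes, SCRpro libraries were above all others, at log2 fold changes of 3.84 (SE 0.18) for JAZ7, 3.62 (SE 0.15) for JAZ8, 3.54 (SE 0.18) for JAZ10 and 2.29 (SE 0.14) for JAZ9. JAZ3 and JAZ6 were also above all other libraries, with 120 to 153 and 485 to 874 in SCRpro nuclei. JAZ1, JAZ2, JAZ5 and JAZ12 were higher as well, at 1.5, 2.63, 2.04 and 1.53, but their SCRpro libraries overlapped those of other tissues. The overlap was with LTP1pro and VND7pro nuclei for JAZ1, with VND7pro for JAZ2 and JAZ5 and with NST3pro for JAZ12. JAZ4 (AT1G48500) had 1.26, 14.3 and 0 and JAZ11 14.5, 14.3 and 20.9 in SCRpro nuclei, and neither was called. A part of JAZ12 (13%) and of JAZ10 (3.1%) is covered by genes on the opposite strand, and reads there cannot be assigned.

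All 5 turnover genes were higher in SCRpro nuclei. CYP94B1 and CYP94B3 encode enzymes that hydroxylate the jasmonate conjugate, and CYP94C1 carries the oxidation further. CYP94B1 (AT5G63450) had 718, 420 and 835 in SCRpro nuclei, against 0.913 to 32.9 (median 8.33) in the other tissues. CYP94B3 (AT3G48520) had 169, 127 and 217 in SCRpro nuclei, against 5.63 to 55.0 (median 21.5). CYP94C1 (AT2G27690) had 401, 323 and 462 in SCRpro nuclei, against 5.74 to 71.3 (median 42.5). SCRpro libraries were above all others for each. CYP94B1 was the extreme case of all 33 genes, with a mean 21.3 times that of the next tissue, LTP1pro. In the paper, a fluorescent reporter driven by the CYP94B1 promoter was among those barely detectable in any tissue. The paper adds that such upstream regions may lack elements that shape the expression of the gene itself. ILL6 and IAR3 encode amidohydrolases that split the conjugate again. ILL6 (AT1G44350) had 1604, 1128 and 1903 in SCRpro nuclei, against 53.4 to 353 (median 151). IAR3 (AT1G51760) had 294, 238 and 358 in SCRpro nuclei, against 20.1 to 117 (median 63.3). These too lay above all other libraries. Log2 fold changes were 6.17 (SE 0.24) for CYP94B1, 3.04 (SE 0.21) for CYP94B3, 3.74 (SE 0.15) for CYP94C1, 3.39 (SE 0.13) for ILL6 and 2.45 (SE 0.15) for IAR3.

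VSP1 and VSP2, classic jasmonate-induced genes for vegetative storage proteins, lie 5.37 kb apart on chromosome 5. VSP1 (AT5G24780) had 149, 144 and 189 in SCRpro nuclei, against 4.10 to 117 (median 25.0) in the other tissues. VSP2 (AT5G24770) had 251, 338 and 385 in SCRpro nuclei, against 8.61 to 231 (median 52.6). SCRpro libraries were above all others for both, at the same log2 fold change of 2.61, yet the pair parted elsewhere. The next tissue was VND7pro for VSP1 and NST3pro for VSP2, and in PXYpro nuclei VSP1 was lower (-2.70, SE 0.27) and VSP2 higher (1.09, SE 0.15).

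**Figure D3:**
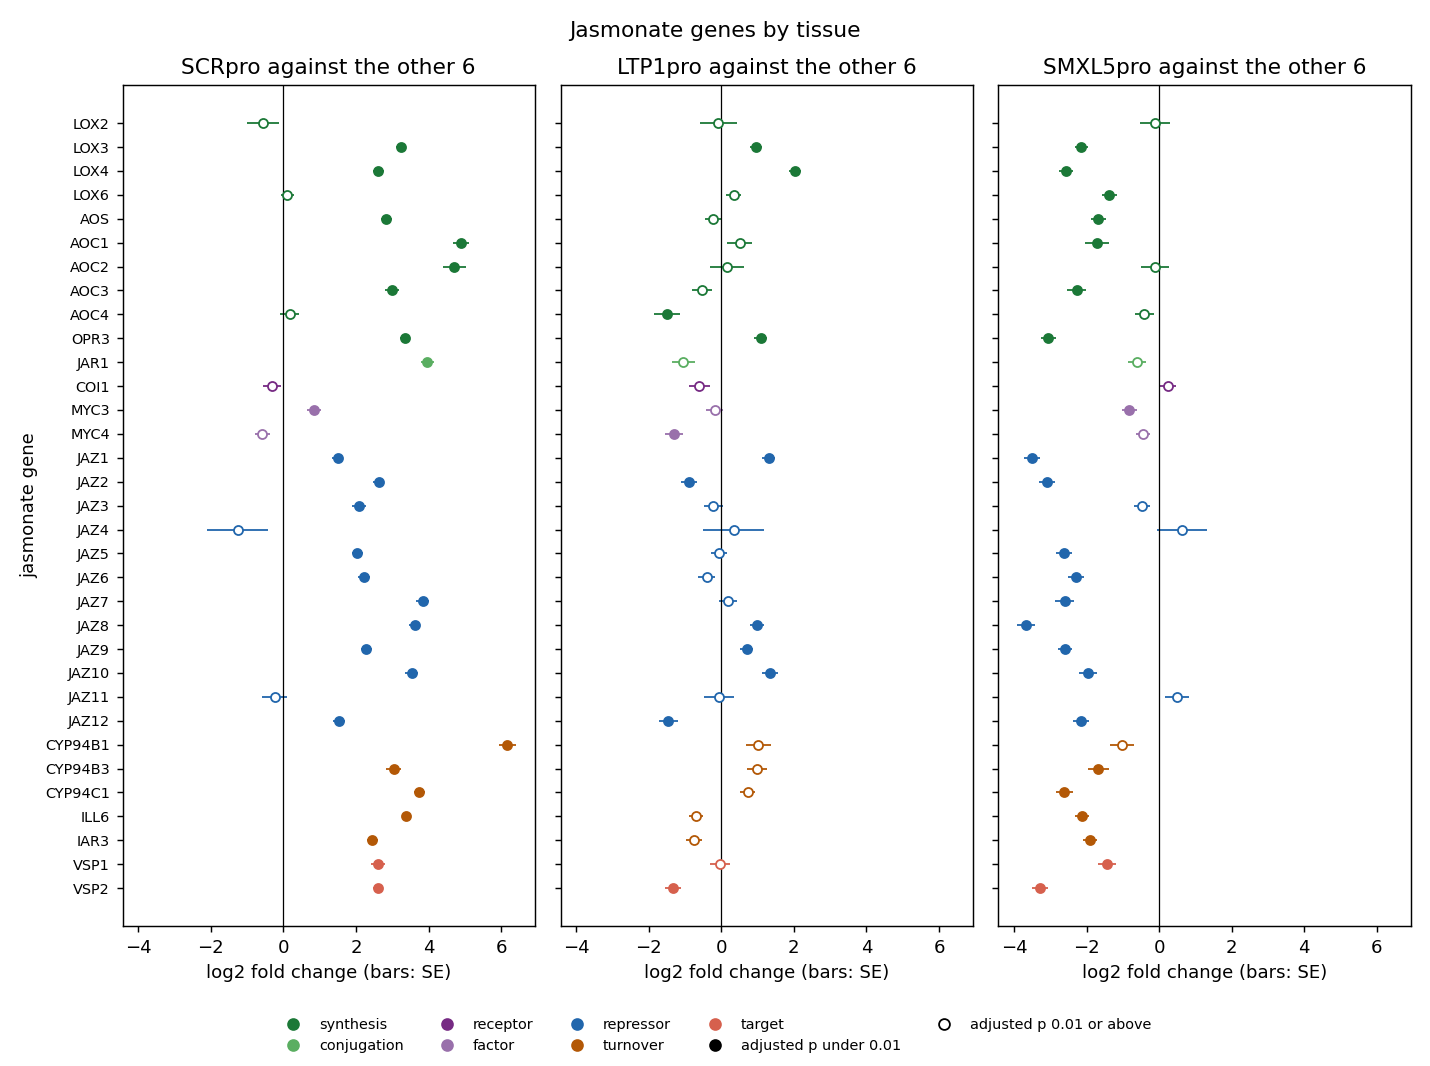
Log2 fold change of each of the 33 tested jasmonate genes in a tissue against the mean of the other 6 (x axis), with its SE as a bar, in panels for SCRpro, LTP1pro and SMXL5pro nuclei, coloured by role and filled where the adjusted p was under 0.01. In the SCRpro panel 26 genes are filled, all right of 0, and in the SMXL5pro panel 23 are filled, all left of 0.

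A stricter question is which genes were higher in a tissue than in each of the others. A gene was called predominant when its log2 fold change exceeded 1 against each other tissue and the largest of the 6 one-sided p-values passed an adjusted p of 0.01. By this rule 16 of the 33 genes were predominant, all of them in SCRpro nuclei, where 0.511% of all genes were. In the other tissues 0 of the 33 were predominant, where 0.934% of all genes were in VND7pro, 0.104% in NST3pro, 0.0919% in LTP1pro, 0.0367% in PXYpro, 0.0122% in APLpro and 0.00% in SMXL5pro nuclei. The 16 were LOX3, AOS, AOC1, AOC2, AOC3, OPR3, JAR1, JAZ7, JAZ8, JAZ9, JAZ10, CYP94B1, CYP94B3, CYP94C1, ILL6 and IAR3. Among all 21 libraries 5 remained (AOC1, AOC2, CYP94B1, ILL6 and JAR1), and without LTP1pro replicate 20, which leaves 1 LTP1pro library assumed to vary like the rest, 10 did. After the read density on pseudogenes was subtracted 8 genes were predominant, 7 of them among the 16.

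Promoter sequence was examined because many of these genes were high in SCRpro nuclei together. LOX2, COI1, JAZ4 and JAZ11 did not pass the test among the 7 tissues, though JAZ11 was called lower in VND7pro nuclei. The G-box CACGTG, which MYC factors are known to bind, was sought on both strands in the 250 bases before the annotated start of each gene, and being a palindrome it reads alike on both. It occurred in 5 of 34 promoters (14.7%) and in 6.49% of the 27443 promoters of protein-coding genes of the same length. Among the 16 predominant genes 3 (18.8%) had it. The related CACATG was in 7 of 34 (20.6%, against 11.1% of all promoters), the W-box core TTGAC in 18 (52.9%, against 44.9%) and the GCC-box GCCGCC in 0 (against 1.87%). These are counts of letters in a short window, and no test was made of them. The 5 promoters with a G-box are shown from 5′ to 3′ on the strand of the gene, with the G-box in capitals, because they let its distance from the start be seen in genes of both kinds. They are taken from the TAIR10.1 assembly with RefSeq gene models. AOS is at chr5:17099596-17099845 on the minus strand, JAZ2 at chr1:28150447-28150696 on the minus strand, JAZ3 at chr3:6119457-6119706, JAZ7 at chr2:14572780-14573029 and JAZ8 at chr1:10596102-10596351, these last on the plus strand.
AOS: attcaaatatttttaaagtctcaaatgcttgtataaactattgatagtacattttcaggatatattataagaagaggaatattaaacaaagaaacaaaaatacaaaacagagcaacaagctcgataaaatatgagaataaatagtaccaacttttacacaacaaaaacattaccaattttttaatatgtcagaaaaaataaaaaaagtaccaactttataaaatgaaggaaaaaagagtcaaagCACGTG
JAZ2: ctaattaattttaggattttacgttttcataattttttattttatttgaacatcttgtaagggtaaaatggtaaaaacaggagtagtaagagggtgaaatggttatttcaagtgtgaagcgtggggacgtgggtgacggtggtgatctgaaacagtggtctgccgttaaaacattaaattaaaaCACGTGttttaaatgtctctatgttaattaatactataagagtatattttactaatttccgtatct
JAZ3: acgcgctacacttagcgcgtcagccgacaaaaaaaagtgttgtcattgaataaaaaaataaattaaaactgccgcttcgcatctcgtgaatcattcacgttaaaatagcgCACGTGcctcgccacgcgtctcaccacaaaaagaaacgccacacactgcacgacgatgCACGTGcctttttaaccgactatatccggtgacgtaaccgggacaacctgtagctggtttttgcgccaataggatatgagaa
JAZ7: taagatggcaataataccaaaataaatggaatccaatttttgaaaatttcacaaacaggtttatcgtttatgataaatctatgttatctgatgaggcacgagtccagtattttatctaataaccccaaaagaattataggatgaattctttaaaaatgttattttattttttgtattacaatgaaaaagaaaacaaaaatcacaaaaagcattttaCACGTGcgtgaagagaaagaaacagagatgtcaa
JAZ8: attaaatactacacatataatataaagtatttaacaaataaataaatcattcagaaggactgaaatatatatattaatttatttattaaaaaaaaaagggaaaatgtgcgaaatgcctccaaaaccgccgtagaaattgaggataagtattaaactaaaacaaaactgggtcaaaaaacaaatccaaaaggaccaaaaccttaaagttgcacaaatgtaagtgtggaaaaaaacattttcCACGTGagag
The G-box began 6 bases before the start in AOS, 10 in JAZ8, 34 in JAZ7 and 66 in JAZ2, and JAZ3 had it at 140 and at 82. AOS, JAZ7 and JAZ8 were predominant in SCRpro nuclei, and JAZ2 and JAZ3 were higher there without being predominant. The 3 genes with the highest fold changes in SCRpro nuclei, CYP94B1, AOC1 and AOC2, had no G-box in this window.

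In SMXL5pro nuclei, unlike in SCRpro nuclei, 23 genes were lower and 0 higher than the mean of the other tissues, where 11.4% and 2.13% of all genes were. JAZ8 (AT1G30135) had 4.62, 6.92 and 5.07 in SMXL5pro nuclei, against 15.2 to 486 (median 69.2) in the 14 other libraries. JAZ1 (AT1G19180) had 111, 138 and 82.6 in SMXL5pro nuclei, against 476 to 2395 (median 1457). Both lay below all other libraries, at log2 fold changes of -3.67 (SE 0.24, adjusted p = 1.26e-09 in the edgeR quasi-likelihood test) for JAZ8 and -3.51 (SE 0.22, adjusted p = 7.83e-10) for JAZ1. The lower genes were 7 of 10 in synthesis, 9 of 12 repressors, 4 of 5 in turnover, both VSP genes and MYC3, whereas JAR1, COI1 and MYC4 were not called. The MYC3 call was lost in 10 of the 17 fits without 1 library and in 4 of 5 other alternatives. The 3 GFP-negative libraries of the SMXL5pro line were low as well. Scaled within that line, JAZ8 had a mean of 8.65 for GFP-positive libraries, against 7.12 for GFP-negative ones, and OPR3 had 95.7, against 86.7. The median log2 fold change between the 2 populations was -0.11 over the 33 genes, and in the comparison with other tissues the line and the tissue cannot be told apart. Against the other tissues, the median over the 33 genes was -1.91 and over all genes 0.36. Fitted with all 21 libraries, 19 genes were lower, where 2.92% of all genes were (0.231% higher). Besides its high pseudogene share, SMXL5pro was the tissue moved most by the choice of scaling, with a shift of -0.215 in its log2 fold changes under TMM factors relative to DESeq2 size factors, with which 22 genes were called.

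PXYpro nuclei were the second tissue with many higher genes. In them 11 genes were higher and 1 was lower, where 7.38% and 0.723% of all genes were. JAZ7 (AT2G34600) had 102, 107 and 98.4 in PXYpro nuclei, against 7.47 to 538 in the 14 other libraries. OPR3 had 901, 1027 and 744, AOC3 290, 335 and 239 and LOX4 960, 1005 and 863 in PXYpro nuclei. The PXYpro libraries lay below SCRpro for each and above NST3pro, VND7pro, SMXL5pro and APLpro nuclei. Log2 fold changes were 1.66 (SE 0.19) for JAZ7, 1.46 (SE 0.15) for OPR3, 1.32 (SE 0.20) for AOC3 and 1.27 (SE 0.15) for LOX4. The other higher genes were LOX3, LOX6, MYC4, JAZ2, JAZ12, IAR3 and VSP2. The IAR3 call was lost in 11 of the 17 fits without 1 library and in 4 of 5 other alternatives, and that of JAZ12 in 2 and in 3. VSP1 was the lower one, with 4.10, 9.56 and 6.83 in PXYpro nuclei, against 13.7 to 189 (median 33.4), below all others. The fit of 21 libraries called 4 genes higher and VSP1 lower, where 3.44% and 0.256% of all genes were.

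In VND7pro nuclei 6 genes were higher and 6 lower, where 10.3% and 2.05% of all genes were, and 5 of the 6 higher ones were JAZ genes (JAZ2 alone with all 21 libraries). JAZ2 had 520 and 411 in VND7pro nuclei, a level overlapping that of SCRpro nuclei, against 14.9 to 282 in the remaining 5 tissues. JAZ5 had 676 and 773 and JAZ8 125 and 107 in VND7pro nuclei, and VSP1 had 117 and 95.6. Log2 fold changes were 2.26 (SE 0.17) for JAZ2, 1.91 (SE 0.22) for VSP1, 1.65 (SE 0.19) for JAZ5 and 1.45 (SE 0.19) for JAZ8, and JAZ1 and JAZ6 were higher too. The lowest were AOC2, with 1.60 and 4.69, and CYP94B1, with 0.913 and 7.25, which were called at -2.71 (SE 0.65) and -2.65 (SE 0.51), though both overlapped other tissues. LOX4, AOS, JAR1 and JAZ11 were also lower. With 21 libraries 2 genes were higher and 2 lower, where 4.51% and 0.792% of all genes were, and without VND7pro replicate 4, which leaves 1 library of this tissue, 5 were, with AOC2 and CYP94B1 among those lost.

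NST3pro nuclei held 4 higher and 12 lower genes, where 8.76% and 3.29% of all genes were. VSP2 had 188 and 231 in NST3pro nuclei, second only to SCRpro. MYC4 had 185 and 153, JAZ12 140 and 158 and JAZ9 537 and 604 in NST3pro nuclei, each overlapping at least 1 other tissue. Their log2 fold changes were 1.87 (SE 0.16) for VSP2, 1.28 (SE 0.19) for MYC4, 1.25 (SE 0.20) for JAZ12 and 0.72 (SE 0.17) for JAZ9. The JAZ9 call was lost in 4 of the 17 fits without 1 library and in 3 of 5 other alternatives. The lowest were JAZ7, with 14.1 and 7.98 in NST3pro nuclei (-2.10, SE 0.30), and CYP94C1, with 14.4 and 12 (-1.98, SE 0.26), and all 3 CYP94 genes were among the lower ones. CYP94B1 (3.28 to 7.78) and CYP94B3 (5.63 to 12.8) had few reads there. Their calls were lost after subtraction of background, and that of CYP94C1 with all 21 libraries. AOC1 was also lower, with a call lost in 9 of the 17 fits without 1 library. From all 21 libraries 1 gene was higher and 6 were lower, where 3.52% and 1.15% of all genes were, and without NST3pro replicate 3, which leaves 1 library, 9 were.

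APLpro nuclei, whose pseudogene share was also high, had 10 lower and 0 higher genes, where 2.96% and 1.00% of all genes were. JAZ9 had 137 and 124 in APLpro nuclei and OPR3 had 167 and 112, above SMXL5pro nuclei for both. Log2 fold changes were -1.76 (SE 0.22) for JAZ9 and -1.67 (SE 0.23) for OPR3. The other lower genes were LOX3, LOX6, JAZ2, JAZ6, JAZ8, CYP94B3, ILL6 and IAR3. This count depended on single libraries, since it was 3 without APLpro replicate 13, 1 without replicate 14 (both with 1 library left) and 1 with all 21 libraries, where 0.367% of all genes were lower and 0.225% higher, and JAZ9 was the gene left with 21.

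LTP1pro nuclei had 7 higher and 5 lower genes, where 3.11% and 6.12% of all genes were. LOX4 had 1470 and 1505 in LTP1pro nuclei, close below SCRpro, and JAZ1 had 1824 and 2062, overlapping SCRpro. JAZ10 had 88.2 and 118 and OPR3 had 652 and 784 in LTP1pro nuclei. Log2 fold changes were 2.04 (SE 0.16) for LOX4, 1.33 (SE 0.22) for JAZ10, 1.31 (SE 0.18) for JAZ1 and 1.09 (SE 0.18) for OPR3. LOX3, JAZ8 and JAZ9 were higher too, JAZ9 with a call lost in 10 of the 17 fits without 1 library. The lowest were AOC4, with 8.49 and 10.6 in LTP1pro nuclei (-1.5, SE 0.36) and below all others, and JAZ12, with 31.9 and 27.8 (-1.46, SE 0.26). Set directly against LTP1pro nuclei, the difference of SCRpro nuclei was 0.16 (SE 0.24) for JAZ1 and 0.50 (SE 0.23) for LOX4 on the log2 scale, neither past an adjusted p of 0.01 (0.726 and 0.182 in the edgeR quasi-likelihood test), against 4.41 (SE 0.48) for CYP94B1. The count of 12 called genes was 5 without LTP1pro replicate 20 and 2 without replicate 21, each leaving 1 library.

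The epidermis library that the study left out changed this picture. On the scale of all 21 libraries, the 34 genes summed to 18440 in LTP1pro replicate 19, against 7006 and 7525 in replicates 20 and 21, and to 16663 to 27935 in SCRpro nuclei. In replicate 19, 28 of 33 genes were above both other LTP1pro libraries, by a median ratio of 2.38 over the mean of that pair. LOX4 had 3932 and JAZ1 5167 in replicate 19, above every SCRpro library. Of the 16 genes predominant in SCRpro nuclei, 15 were above both other LTP1pro libraries in replicate 19, but JAZ9 alone reached the SCRpro libraries, at 1461, against 1131 to 1893. OPR3 and LOX3 came close with 1968 and 1787, while CYP94B1 at 83.5, JAR1 at 37.3 and AOC2 at 8.99 lay far below. Some other genes rose as well, since 18 of 27 markers of many cells also exceeded both other LTP1pro libraries in replicate 19. The share of all genes that did so was not counted, so whether the rise was particular to the jasmonate genes is not known. Some markers rose narrowly, such as SMXL5 with 34.3, against 33.3 and 30.8. Others fell below both, such as APL with 7.71, against 24.7 and 22.1. The epidermis markers CER6 and FDH were at 2.67 and 3.48 times the mean of the pair. The starch sheath marker PIN3 had 268 in replicate 19, against 96.6 and 105 in replicates 20 and 21, and SCR had 26.5, against 16.8 and 7.26. TGG1, read as a guard-cell gene, had 1247, against 332 and 470, and LHCB3, read as a green-cell gene, had 293, against 82.2 and 105. Of the other guard-cell genes, FAMA had 8.14, against 35.3 and 37.2, and MYB60 had 19.3, against 21.8 and 20.6. KAT1 was near level, with 36.4, against 35.3 and 31.4. The pseudogene share of replicate 19 was 1.33%, and the part of background or of other cells in these differences was not tested. With all 21 libraries 9 genes were higher in LTP1pro nuclei and 0 lower, where 2.31% and 0.592% of all genes were, with CYP94B1 and CYP94B3 added. VND7pro replicate 6 had a sum of 2723, against 5836 and 6154 in the kept pair, and NST3pro replicate 2 and APLpro replicate 15 had 4025 and 1888.

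**Figure D4:**
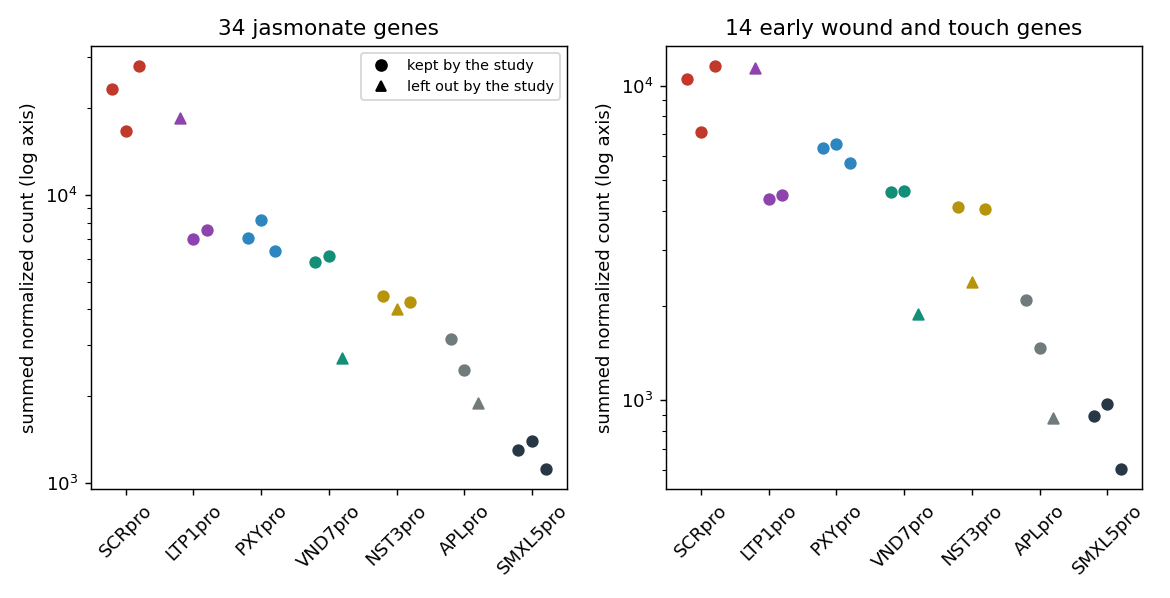
Summed normalized read count of the 34 jasmonate genes and of 14 early wound and touch genes (vertical log axes) in each of the 21 GFP-positive libraries by tissue, with circles for libraries that the study kept and triangles for the 4 that it left out. SCRpro libraries and the left-out LTP1pro replicate 19 are high for both lists, and SMXL5pro libraries are low.

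Genes outside the 34 were read for comparison, in lists chosen with earlier results of these data known. Of 32 other jasmonate genes, 11 were higher and 0 lower in SCRpro nuclei, against the 6.36% and 1.59% of all genes given above, and the median log2 fold change was 0.37. With all 21 libraries 9 were higher, against 4.07% of all genes. JOX2, an enzyme that inactivates jasmonic acid by hydroxylation, had 417, 312 and 605 in SCRpro nuclei, against at most 78.8 elsewhere. OPR1, a relative of OPR3, had 696, 573 and 1015 in SCRpro nuclei, against 30.4 to 117. Both lay above all other libraries. Among 10 genes of jasmonate output, 2 were higher, namely the ERF-family factor genes RAP2.6, with 193, 109 and 262 in SCRpro nuclei, against 8.36 to 29.3, and ERF1, with 26.5, 24.9 and 23.3, against 1.01 to 19.6. The median of this list was 0.23, and 2 were also higher with all 21 libraries.

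Early wound and touch genes moved with the jasmonate genes. Nuclei had been freed by chopping stems on ice, and the list holds 14 genes known to respond within minutes to wounding or touch. The list was chosen with earlier results of these data known, so its counts are not an independent check. In SCRpro nuclei 11 were higher and 0 lower, where 6.36% and 1.59% of all genes were. In PXYpro nuclei 9 were higher and 0 lower (7.38% and 0.723% of all genes), and in SMXL5pro nuclei 0 were higher and 12 lower (2.13% and 11.4%). With all 21 libraries 8 were higher in SCRpro, 4 higher in PXYpro and 9 lower in SMXL5pro nuclei, where 4.07%, 3.44% and 2.92% of all genes were. WRKY18, a stress-induced WRKY factor, had 3455, 2264 and 3268 in SCRpro nuclei, against 73.9 to 1004 in the other tissues. CML38, a calmodulin-like calcium sensor, had 594, 429 and 642 in SCRpro nuclei, against 21.5 to 164. Both lay above all other libraries. The sum of the 14 was 7019 to 10563 in SCRpro, 5563 to 6291 in PXYpro, 4655 to 4896 in VND7pro, 4287 to 4424 in LTP1pro, 3858 to 3898 in NST3pro, 1462 to 2022 in APLpro and 578 to 937 in SMXL5pro libraries. LTP1pro replicate 19 had 11390 on the scale of all 21 libraries, against 4356 and 4490 in the other LTP1pro libraries. What part these responses have in the jasmonate levels was not tested.

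Markers of other cells were read in the same libraries. The 4 green-cell genes (LHCB3, LHCB2.2, RBCS1A and LHCB1.3) summed to 2723 to 3882 in SCRpro libraries, against 8113 to 9536 in NST3pro and 264 to 365 in SMXL5pro libraries, and none was at 0 in SCRpro nuclei. The 4 guard-cell genes (FAMA, MYB60, KAT1 and TGG1) summed to 1241 to 2040 in SCRpro libraries and to 1523 to 1599 in APLpro libraries. In SCRpro nuclei nearly all of that sum was TGG1, a myrosinase gene, with a mean of 1514, while FAMA, MYB60 and KAT1 had means of 17.3, 5.58 and 15.9. Green-cell sums were highest in NST3pro and jasmonate sums in SCRpro libraries, and both were lowest in SMXL5pro libraries. What part other cells have in the jasmonate levels was not tested.

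Within lines, GFP-positive nuclei were compared with GFP-negative nuclei of the same line, with an adjusted p of 0.05 as threshold and all libraries included. No member passed in edgeR with the 6 libraries of a line (0 of 33 in each). In the NST3pro line 3 genes had an unadjusted p under 0.05, against 5.91% of all genes, and the lowest adjusted p was 0.813, where 0.00% of all genes were called in either direction. In the SMXL5pro line 3 had an unadjusted p under 0.05, against 6.75%, and the lowest adjusted p was 0.588, where 0.00660% of all genes were called higher and 0.00% lower. In the APLpro line 15 had an unadjusted p under 0.05, against 9.5%, and the lowest adjusted p was 0.348, where 0.0994% were called higher and 0.00% lower. DESeq2 called 2 genes lower in the APLpro line, where it called 0.216% of all genes lower and 0.437% higher. A single edgeR fit of all 18 libraries of the lines called 3 lower in the NST3pro line (LOX2, JAR1 and JAZ11, where 1.80% of all genes were lower and 0.850% higher), and both called 0 in the remaining lines. JAZ11 was called though its populations overlapped, and for these 3 genes GFP-negative replicate 47 had the highest value of the NST3pro line. Without the GFP-positive library that the study left out, 0 genes were called in the NST3pro and in the APLpro line.

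The APLpro line had the clearest direction. For 17 of 33 genes every GFP-positive library was below every GFP-negative one, and for 0 above, where 7.08% and 10.7% of all genes were. The median log2 fold change of the 33 genes was -0.81. The pseudogene share ran the other way, with 3.49%, 4.74% and 6.43% in GFP-positive libraries, against 2.00%, 2.48% and 4.10% in GFP-negative libraries, and its part in the direction was not tested. JAZ8 had 28.2, 29.5 and 23.5 in GFP-positive nuclei, against 71.0, 71.9 and 52.1 in GFP-negative nuclei. LOX4 had 482, 334 and 322 in GFP-positive nuclei, against 1045, 870 and 590 in GFP-negative nuclei. The populations did not overlap for either gene, at -1.26 (SE 0.33) for JAZ8 and -1.14 (SE 0.59) for LOX4, with adjusted p-values of 0.348 and 0.545 in the edgeR quasi-likelihood test. In DESeq2 JAZ8 (-1.32, adjusted p = 0.0395) and LOX3 (-1.17, adjusted p = 0.0474) were called lower.

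In the SMXL5pro line 6 genes were lower and 1 was higher without overlap, where 6.60% and 6.99% of all genes were. JAZ1 had 174, 212 and 132 in GFP-positive nuclei, against 233, 303 and 318 in GFP-negative nuclei (-0.72, SE 0.22). IAR3 had 31.4, 38.4 and 34.7 in GFP-positive nuclei, against 51.0, 73.8 and 48.7 in GFP-negative nuclei (-0.71, SE 0.27). These differences were small beside those among tissues.

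In the NST3pro line 4 genes were lower and 0 higher without overlap, where 3.79% and 5.74% of all genes were. JAR1 had 23.4, 46.2 and 27.7 in GFP-positive nuclei, against 48.5, 517 and 60.9 in GFP-negative nuclei. LOX2 had 38.9, 53.9 and 18.3 in GFP-positive nuclei, against 109, 205 and 69.7 in GFP-negative nuclei. The value of 517 was from GFP-negative replicate 47, the shallowest library of the series with 725545 reads, and the other GFP-negative libraries lay close above the GFP-positive ones for JAR1. Whether GFP-positive and GFP-negative nuclei differed by unlike amounts in 2 lines was tested as an interaction, which was called for 0 of 33 genes in edgeR in each of the 3 pairs of lines, where 0.436% of all genes were called for NST3pro minus APLpro, 0.00313% for NST3pro minus SMXL5pro and 0.00627% for SMXL5pro minus APLpro. The unadjusted p was under 0.05 for 6, 2 and 3 genes in these pairs, and limma voom called 0. Without NST3pro GFP-negative replicate 46 there were 4 calls (JAR1 and JAZ11 in 2 pairs) and without replicate 48 there were 3 (LOX2, JAR1 and JAZ11). Both of these fits kept replicate 47.

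**Figure D5:**
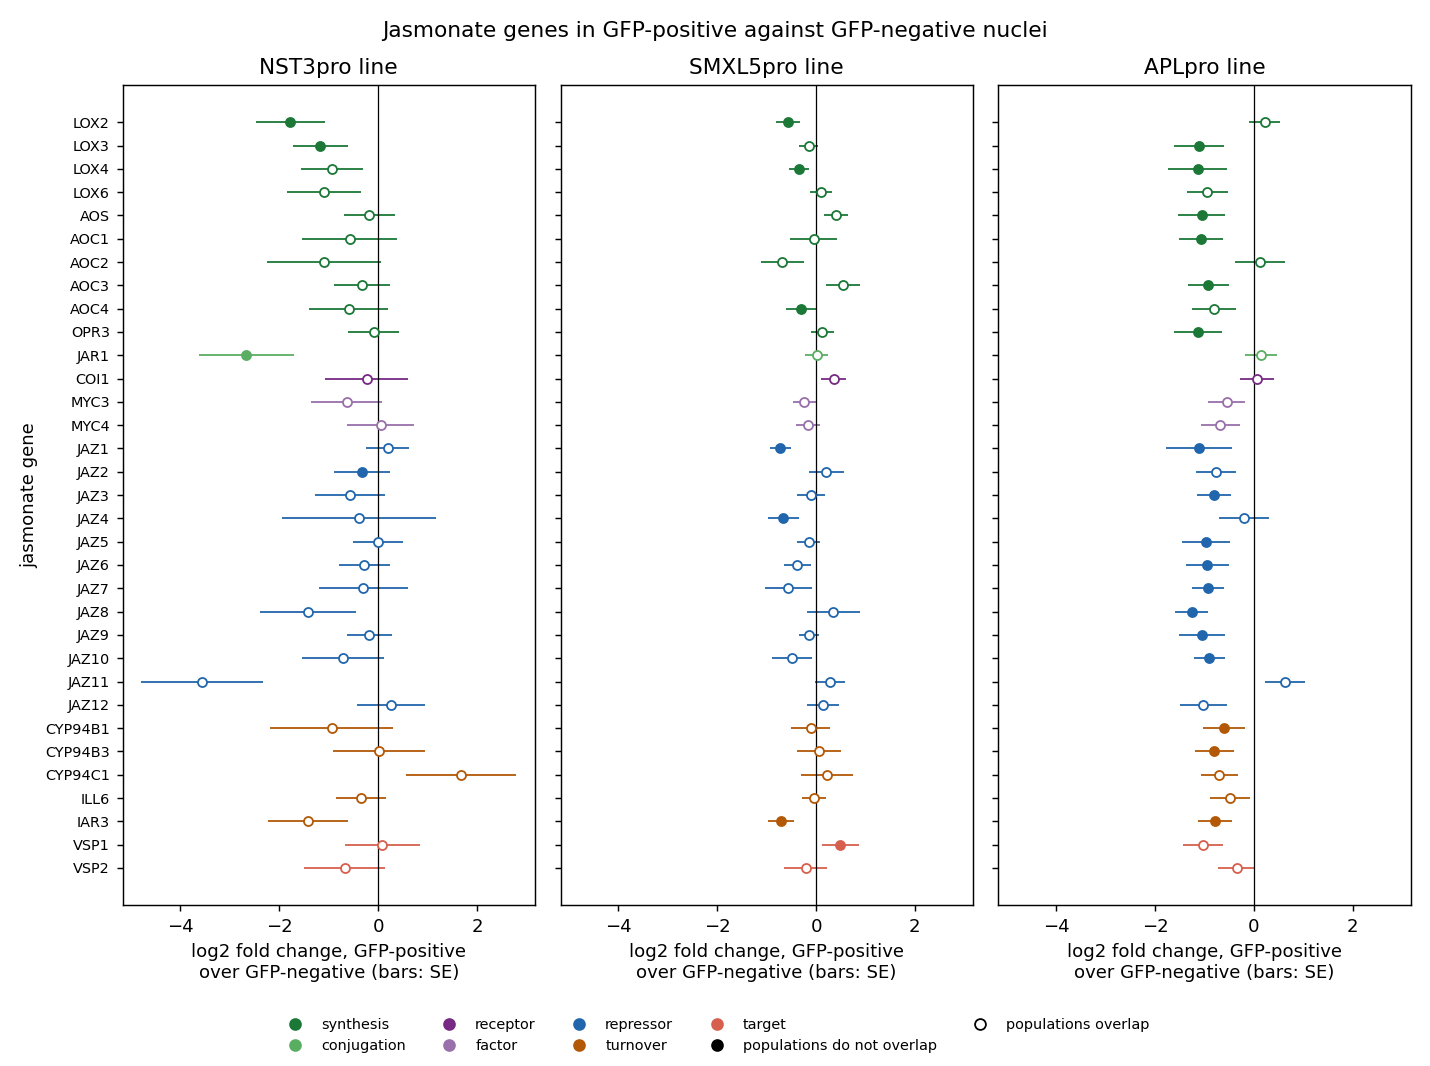
Log2 fold change of GFP-positive over GFP-negative nuclei for the 33 tested jasmonate genes (x axis), with its SE as a bar, in a panel for each of the NST3pro, SMXL5pro and APLpro lines, filled where the populations did not overlap. No gene passed an adjusted p of 0.05 in these edgeR fits, and 28 of 33 lay below 0 in the APLpro panel, against 26 in the NST3pro and 20 in the SMXL5pro panel.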

How the data were processed

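Nuclei were isolated by manual chopping on ice and sorted, with 15000 per library (10800 for LTP1pro replicate 21). The authors amplified polyadenylated RNA by SMART-seq2 without molecular identifiers, chose preparations with a high GFP contrast, trimmed reads with Cutadapt 2.3, aligned them with STAR 2.5.0a to TAIR10 and kept unique hits. They deposited raw counts per Araport11 gene, made with summarizeOverlaps over whole gene bodies (introns too) and without regard to strand. The GFP entry was left out of library sizes. For 9 libraries the same counts stood in both deposited tables (0 genes differed) and entered once.

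Counts were tested in R 4.3.3 with edgeR 4.0.16 (quasi-likelihood test, TMM, filterByExpr, two-sided, Benjamini-Hochberg adjustment over all genes). Tissues were compared in 1 fit of 17 libraries and lines in fits of 6 libraries. DESeq2 1.42.0, limma 3.58.1, size factors, no filter, all 21 libraries, subtraction of pseudogene read density times gene length and leaving out each library were alternatives. On simulated data for SCRpro nuclei, 33.3% of changes of 2 on the log2 scale and 6.4% of changes of 1 were recovered. These were shares of 99 and 94 changed genes among 31755, and no share was computed for the jasmonate genes apart. For the APLpro line, 33% and 0% were recovered, over 30687 genes. Genes are named where predominant in a tissue, where among the 4 highest or 2 lowest called in a tissue, or, in a line without calls, where among the 2 largest differences without overlap. In other lists the 2 largest called differences in SCRpro nuclei are named. Members and lists were chosen with earlier results of these data known. Promoters, neighbours and overlaps are from RefSeq annotation of TAIR10.1, which matched 37051 gene identifiers and all 34 genes. Plots were made in Python 3.11.15 with matplotlib 3.10.9.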

Additional observations from a re-analysis of the deposited data

How the results depend on the processing

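Spread bears on the smaller changes. The common biological coefficient of variation was 0.541 over the 17 libraries and 0.898, 0.312 and 0.431 in the NST3pro, SMXL5pro and APLpro lines. Without molecular identifiers, PCR copies could not be separated. No paired analysis was made, because the labels number all libraries serially and groups share no replicate number. Which GFP-positive and GFP-negative libraries came from 1 preparation is not stated, so any such pairing was not modelled. No call of a member in a tissue reversed direction under any alternative. Of 111 calls in tissues, 2 were lost with DESeq2, 10 with DESeq2 size factors, 0 without a filter, 43 with all 21 libraries and 26 after subtraction of background, and 39 were lost in at least 1 fit that left out a library. The cause of these losses was not tested.

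With all 21 libraries the called genes numbered 7 in NST3pro, 4 in VND7pro, 5 in PXYpro and 1 in APLpro nuclei, and 5 genes were predominant. After subtraction of background 2 were called in APLpro nuclei and 8 were predominant. Leaving out each library in turn gave 28 to 30 genes differing among tissues. By tissue it gave 9 to 16 called genes in NST3pro, 5 to 15 in VND7pro, 10 to 14 in PXYpro, 22 to 23 in SMXL5pro, 1 to 11 in APLpro, 25 to 26 in SCRpro and 2 to 13 in LTP1pro nuclei. Predominant genes numbered 10 to 18. Where 1 library of a tissue was left, it was assumed to vary like the others. In the lines, each of the 6 such fits gave 0 to 0 calls, the fit of 18 libraries gave 3 in the NST3pro line (LOX2, JAR1 and JAZ11, all lower) and DESeq2 gave 2 in the APLpro line. The effect of the sort differed between lines for 0 to 4 genes over 18 fits, with 4 without NST3pro GFP-negative replicate 46 and 3 without replicate 48.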
